A study of Mus musculus with 10 samples.

Results

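The genes described here are 10 members of the pathway through which the cytokine LIF acts on mouse embryonic stem cells (ESCs): the receptor subunits Lifr and Il6st, the kinase Jak1, the transcription factor Stat3, the inhibitor Socs3, and the STAT3 targets Pim1, Pim3, Junb, Gbx2 and Bcl3. They were chosen by symbol from the 51467 genes of the count table, and all 10 were found. Transcript levels were measured by QuantSeq, which reads the 3′ end of polyadenylated RNA, in 10 libraries. The cells grew in Knockout DMEM with 15% serum, LIF and 2i, a pair of inhibitors of MEK (PD0325901) and GSK3 (CHIR99021), so every group, WT included, received both LIF and a block of the MEK branch. WT cells, of the V6.5 line, gave 3 libraries. DGCR8 KO cells lack the partner of Drosha that is needed to make miRNAs, and gave 3 libraries of 1 line taken over from earlier work, whose parent line is not given in the sources used here. DDX6 KO cells lack an RNA helicase that acts with the miRNA effector complex, and gave 4 libraries, 2 from each of 2 clones made with CRISPR in V6.5 cells. No libraries without LIF were analysed here.

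LIF binds LIFR, which then pairs with gp130, the signalling subunit encoded by Il6st and shared by the IL-6 family of cytokines. JAK kinases bound to the receptor phosphorylate STAT3, which enters the nucleus and switches on a set of targets that help to hold mouse ESCs in the undifferentiated state. One of these targets, SOCS3, binds gp130 and JAK and shuts the signal down again. Most of this chain is controlled by phosphorylation, which RNA counts do not show.

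Libraries held between 2131156 and 4745083 gene counts. Levels are given as CPM, in which every library is brought to the same total after correction by the trimmed mean of M-values (TMM). Dgcr8 fell from 56.1 ± 8.41 CPM (SD, n = 3) in WT to 11.6 ± 3.41 (SD, n = 3) in DGCR8 KO cells, and Ddx6 from 538 ± 42.3 (SD, n = 3) to 142 ± 10.5 in clone 1 and 32.4 ± 9.41 in clone 2 (SD, n = 2 each). The 6 listed markers of ESCs, all detected, summed to between 2457 and 3167 CPM in every library. Markers of other cells were low but not level between genotypes. Primitive endoderm markers (5 of 5 detected) summed to 7.58 to 11.04 CPM in WT, 3.26 to 4.75 CPM in DGCR8 KO and 16.5 to 23.8 CPM in DDX6 KO libraries, and primed epiblast markers (3 of 4 detected, Fgf5 at 3 counts or fewer) to 42.1 to 51.5, 45.2 to 60.4 and 14.6 to 18.7 CPM. Trophoblast markers (4 of 5, Elf5 at 3 counts or fewer) summed to 17.4 to 28.3, 16.3 to 35.5 and 29.1 to 47.5 CPM, and fibroblast markers (5 of 5) to 5.13 to 9.12, 4.48 to 5.43 and 7.04 to 10.99 CPM. The differences in the first 2 sums came largely from 1 gene each. Dab2 held 43 to 54 counts in DDX6 KO, 16 to 21 in WT and 1 to 4 in DGCR8 KO libraries, while no other primitive endoderm marker passed 9 counts in any library. Otx2 held 17 to 28 counts in DDX6 KO and 80 to 168 in the other libraries. The part of these markers in the results was not tested. The labels do not say whether the libraries of a genotype came from separate cultures, so the p-values measure the spread between these libraries, which may be technical.

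All 10 genes passed the filter on low counts, as did 11683 genes in all. In DGCR8 KO against WT cells, 4 of the 10 were higher (Lifr, Il6st, Jak1 and Socs3) and 2 were lower (Pim1 and Pim3) at a limma adjusted p-value under 0.05. Of all genes tested, 19.9% were higher and 16.5% lower in that comparison. In DDX6 KO against WT cells, 2 were higher (Jak1 and Socs3) and 4 were lower (Il6st, Pim1, Pim3 and Gbx2), where 17.9% of all tested genes were higher and 16.6% lower. That total of 6 was 3 without clone 2 replicate 1, a smaller fit for which the share of all genes is not given here. The median log2 fold change of the 10 genes was 0.32 in DGCR8 KO cells, against 0.0043 over all genes tested, and -0.33 in DDX6 KO cells, against 0.024. Both comparisons use the same WT libraries. The direct contrast of the knockouts separated 2 of the 10, Lifr and Il6st, both higher in DGCR8 KO cells. In that contrast 23.0% of all genes were higher and 21.0% lower in DGCR8 KO cells.

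**Figure D1:**
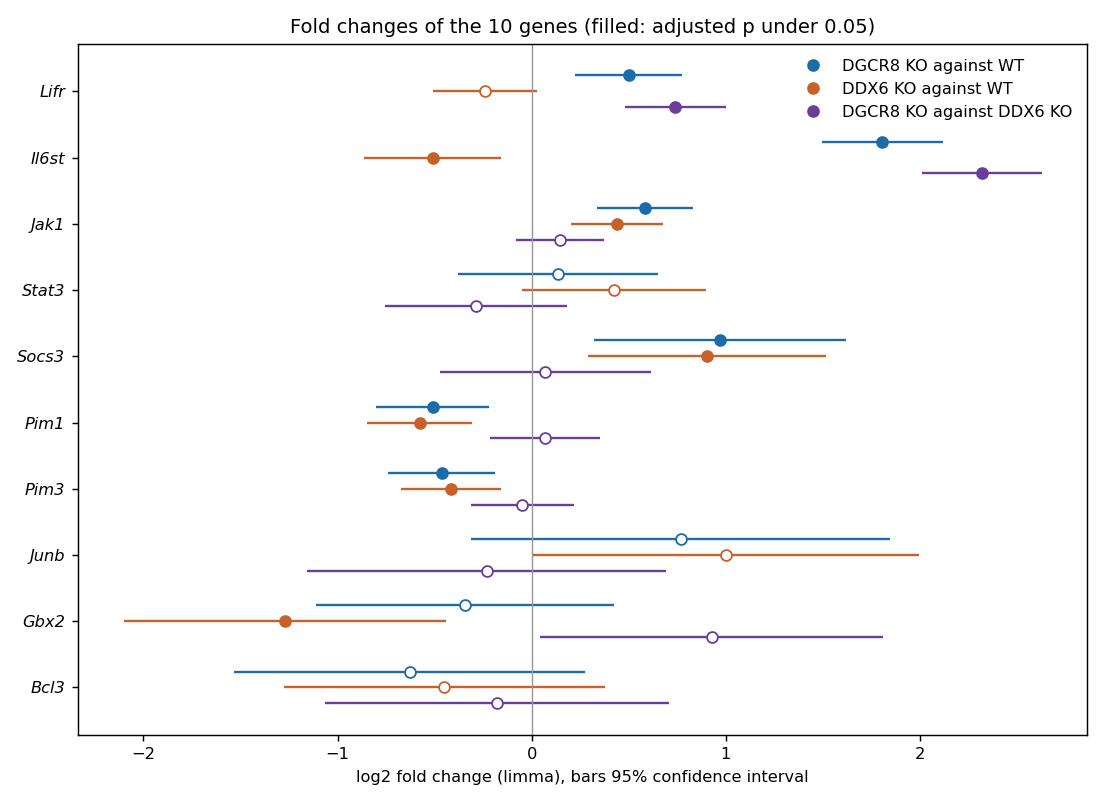
Log2 fold changes (x axis) of the 10 genes in DGCR8 KO against WT, DDX6 KO against WT and DGCR8 KO against DDX6 KO cells, with 95% confidence intervals from the limma fit and filled points where the adjusted p-value was under 0.05. Il6st had the highest value in DGCR8 KO cells (1.81) and lay below 0 in DDX6 KO cells (-0.51), while Jak1, Socs3, Pim1 and Pim3 lay on the same side of 0 in both.

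The receptor subunits were the 2 genes that differed between the knockouts. Il6st (chr13:112464070-112510086, mm10, plus strand) stood at 28.3, 35.1 and 35.4 CPM in the WT libraries. It reached 108, 130 and 115 CPM in the DGCR8 KO libraries, and 26.4 and 20.5 CPM in clone 1 and 20.4 and 26.6 CPM in clone 2 of DDX6 KO. The 3 genotypes did not overlap: every DGCR8 KO library was above every WT library, and every DDX6 KO library was below. Il6st rose by 1.81 on the log2 scale in DGCR8 KO cells (SE 0.15, limma adjusted p = 5.78e-08), or 3.50-fold, and it passed in all 23 alternative fits, with values from 1.73 to 1.89. In DDX6 KO cells it was -0.51 (SE 0.17, limma adjusted p = 0.0257), and it did not pass in 10 of 26 alternative fits. Among these were the fit with scaling by total counts (-0.39, limma adjusted p = 0.0831) and those without WT replicate 2 (-0.48, limma adjusted p = 0.0693), WT replicate 3 (-0.45, 0.118), clone 1 replicate 2 (-0.45, 0.0731) or clone 2 replicate 1 (-0.44, 0.0797). These are bulk libraries, in which fewer cells with a transcript and less of it in each cell cannot be told apart.

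Lifr, the subunit specific to LIF and a few related cytokines (chr15:7129559-7197489, plus strand), had 87.4, 90.3 and 119 CPM in WT libraries. The DGCR8 KO libraries held 139, 133 and 152 CPM. In DDX6 KO cells Lifr had 83.5 and 93.6 CPM in clone 1 and 74.9 and 85.9 CPM in clone 2. The lowest DGCR8 KO library was above the highest WT library, while the DDX6 KO and WT libraries overlapped. Lifr rose by 0.50 on the log2 scale in DGCR8 KO cells (SE 0.13, limma adjusted p = 0.00589), a call that was lost, among 23 alternative fits, only without the 4 libraries whose titles end in 1 (0.43, limma adjusted p = 0.0875). It was -0.24 in DDX6 KO cells (95% interval -0.51 to 0.030, limma adjusted p = 0.159), which did not pass. The direct contrast gave 0.74 for Lifr (SE 0.12, limma adjusted p = 1.09e-04) and 2.32 for Il6st (SE 0.15, limma adjusted p = 1.44e-09), with 3 of 3 DGCR8 KO libraries above all 4 DDX6 KO libraries for both genes. Both differences passed in all 26 alternative fits.

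Because DGCR8 KO cells lack miRNAs, the 3′ UTRs of the 10 genes were searched for matches to the seed of the ESCC miRNAs, the family that dominates in these cells. The 5 members matched by name and seed are printed 5′ to 3′ as RefSeq gives them, since the sites further on are matches to their shared bases 2 to 8, the seed, in capitals.
miR-291a-3p: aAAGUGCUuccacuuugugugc
miR-294-3p: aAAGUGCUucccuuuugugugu
miR-295-3p: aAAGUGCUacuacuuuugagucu
miR-302b-3p: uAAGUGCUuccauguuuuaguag
miR-302d-3p: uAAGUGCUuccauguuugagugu
The matches searched were AGCACTT, which pairs with bases 2 to 8, and GCACTTA, which pairs with bases 2 to 7 and has an A opposite base 1, on the sense strand of the main coding transcript of each gene in the GENCODE annotation of GRCm38. Il6st had 2 matches in a 3′ UTR of 5641 bases, Lifr had 1 in 6320 bases, and the other 8 genes had none. Of 10962 tested genes with an annotated 3′ UTR, 20.0% had a match. The 3 matches are given with their flanks, as they lie in the 2 members that differed between the knockouts, with the matched bases in capitals and the coordinates of those bases in GRCm38.
Il6st 3′ UTR, chr13:112505290-112505296, plus strand: ctggttgaggaAGCACTTtatccagaatgt
Il6st 3′ UTR, chr13:112505990-112505996, plus strand: ggagttgatatGCACTTAgttggatgcagt
Lifr 3′ UTR, chr15:7194723-7194729, plus strand: ttactgcttagGCACTTActcagatagaat
Long 3′ UTRs hold matches more often. Of tested genes whose 3′ UTR was within 20% of the length of that of Il6st, 63.1% had a match, and the share was 66.1% at the length of Lifr. At the lengths of the other 8 genes, from 410 bases in Bcl3 to 1895 in Stat3, the share ran from 6.83% to 25.4%. Whether these sites act on Il6st or Lifr was not tested.

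Jak1, the kinase that gp130 depends on (chr4:101152367-101265282, minus strand), rose in both knockouts. It had 117, 95.7 and 97.4 CPM in WT, 165, 136 and 160 CPM in DGCR8 KO, 137 and 138 CPM in clone 1, and 132 and 146 CPM in clone 2. Every knockout library was above every WT library. Its log2 fold change was 0.58 in DGCR8 KO (SE 0.12, limma adjusted p = 8.38e-04) and 0.44 in DDX6 KO cells (SE 0.11, limma adjusted p = 0.00558), and both passed in all alternative fits. The knockouts differed by 0.14 (95% interval -0.082 to 0.37, limma adjusted p = 0.293), which did not pass.

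Stat3, the transcription factor of the pathway (chr11:100885098-100939540, minus strand), had no change past the threshold in the fit without a block. Its WT libraries held 66.3, 116 and 147 CPM, a spread that covers most of the other libraries. DGCR8 KO cells had 104, 95.01 and 176 CPM, and DDX6 KO cells had 143 and 179 CPM in clone 1 and 111 and 156 CPM in clone 2. The highest and lowest libraries of all 3 genotypes overlapped. The log2 fold change was 0.13 in DGCR8 KO (95% interval -0.38 to 0.65, limma adjusted p = 0.701) and 0.42 in DDX6 KO cells (95% interval -0.052 to 0.90, limma adjusted p = 0.159). Without WT replicate 3, the highest WT library for this gene, the DDX6 KO value was 0.69 and passed (limma adjusted p = 0.0495). Without WT replicate 1, the lowest, it was 0.14 (limma adjusted p = 0.634). Each DDX6 KO library was above the WT library with the same title number. With that number as a replicate block the DDX6 KO value was 0.72 and passed (limma adjusted p = 4.71e-04). The number was not taken to pair DDX6 KO with WT libraries.

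**Figure D2:**
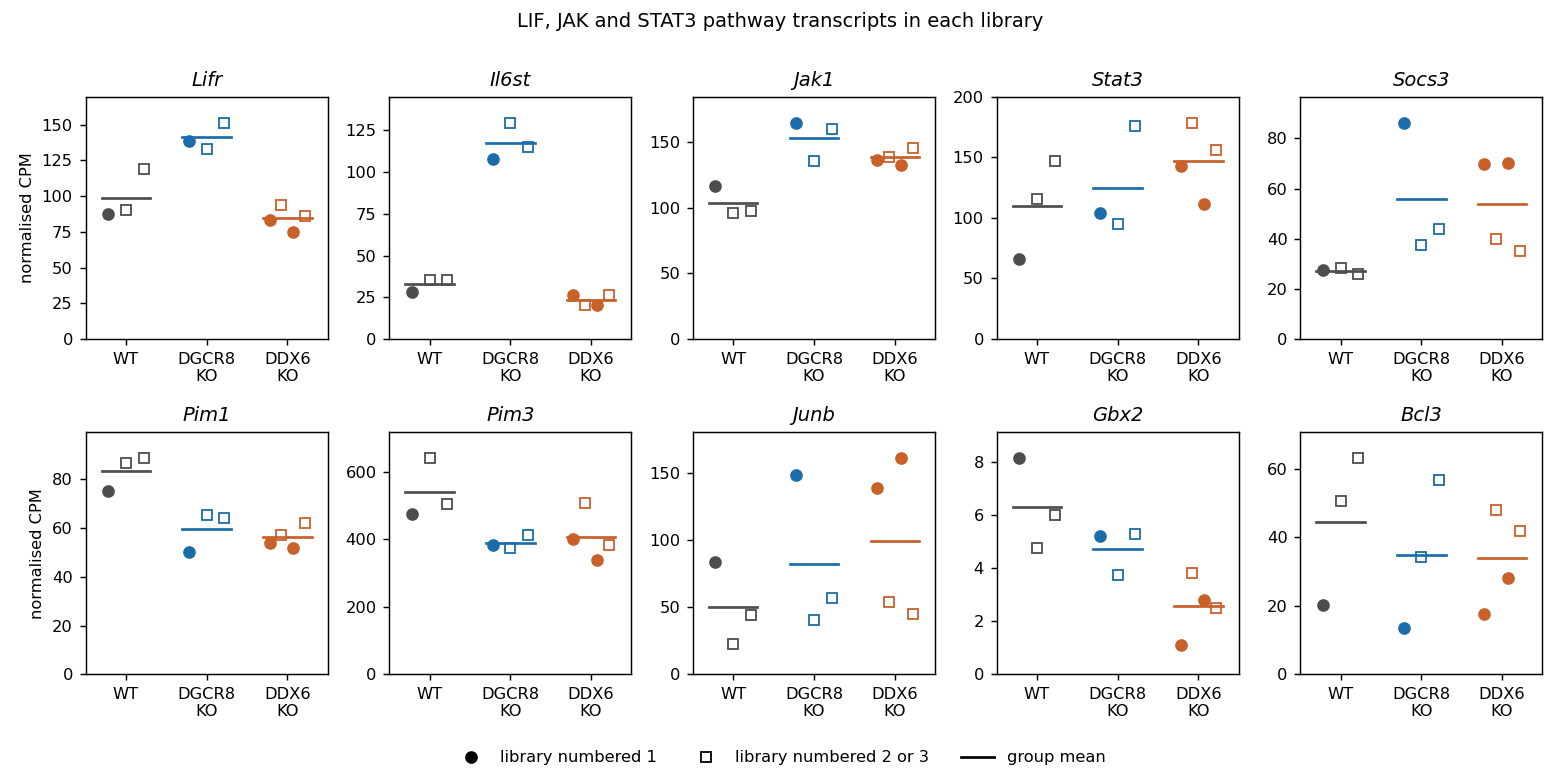
Normalised CPM (y axes, from 0) of each of the 10 genes in the 3 WT, 3 DGCR8 KO and 4 DDX6 KO libraries, with filled circles for libraries numbered 1 in their titles, open squares for those numbered 2 or 3, and lines at group means. Il6st stands between 108 and 130 CPM in DGCR8 KO and at or below 35.4 CPM elsewhere, and the filled circles of Junb are the highest and those of Bcl3 the lowest within every genotype.

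Socs3, the feedback inhibitor (chr11:117966079-117969186, minus strand), was higher in both knockouts, and by more in some libraries than in others. WT libraries were close together at 27.4, 28.3 and 25.9 CPM. DGCR8 KO libraries had 86.3, 37.3 and 44.0 CPM, clone 1 had 69.96 and 39.998 CPM, and clone 2 had 70.4 and 35.3 CPM. All 7 knockout libraries were above all 3 WT libraries, and within each knockout line the library numbered 1 was the highest. Socs3 had a log2 fold change of 0.97 in DGCR8 KO (SE 0.31, limma adjusted p = 0.0192) and of 0.90 in DDX6 KO cells (SE 0.29, limma adjusted p = 0.0229). The knockouts differed by 0.069 (95% interval -0.47 to 0.61). The DGCR8 KO call did not pass without WT replicate 3 (0.92, limma adjusted p = 0.0759) or without DGCR8 KO replicate 1, where the value was 0.58 (limma adjusted p = 0.151). The DDX6 KO call did not pass without WT replicate 3 (limma adjusted p = 0.101), clone 1 replicate 1 (0.0625) or clone 2 replicate 1 (0.0645). With the title number as a replicate block Socs3 was 0.98 in DGCR8 KO (SE 0.18, limma adjusted p = 8.91e-05), which passed. The DDX6 KO value with the block was 0.83 (SE 0.18, limma adjusted p = 0.00102) and passed.

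Socs3 is a direct target of STAT3, so the promoters of the 10 genes were searched for the STAT letters TTCNNNGAA and the stricter TTCCNGGAA, which are the same on both strands and of which the second is a case of the first. The windows run from 250 bases before to 50 after each RefSeq start site in GRCm38.p6, with a pair of windows each for Lifr and Pim1. TTCNNNGAA occurred in the window of Socs3 alone, and in 8.30% of all 32851 windows. TTCCNGGAA occurred in none of the 10 genes' windows and in 1.15% of all windows. The 250 bases before the start of Socs3 (chr11:117969367-117969616, minus strand) are printed with the match, TTCTTAGAA, in capitals. It begins 154 bases before the RefSeq start site used here. That site lies upstream of the gene boundary at 117969186 in the count annotation. The window ends at 117969317 and does not reach that boundary, so the bases between were not searched.
Socs3 promoter: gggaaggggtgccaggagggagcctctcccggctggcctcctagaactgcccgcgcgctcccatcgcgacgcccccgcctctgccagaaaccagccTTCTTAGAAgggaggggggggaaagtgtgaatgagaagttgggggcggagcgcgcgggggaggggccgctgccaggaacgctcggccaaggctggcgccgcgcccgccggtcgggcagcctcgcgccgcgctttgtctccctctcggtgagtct
A match in these letters is a description of the window, and binding was not measured.

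Several of the genes moved with the number at the end of the library title as well as with the genotype. Libraries numbered 1 (WT replicate 1, DGCR8 KO replicate 1 and replicate 1 of each DDX6 KO clone) had more Junb than the others of their genotype, by 2.49 times in WT, 3.04 times in DGCR8 KO and 3.04 times in DDX6 KO cells. Fos, which pairs with JUNB in AP-1, followed with 2.60, 2.48 and 2.57 times, and the immediate-early factor Egr1 with 1.92, 4.36 and 7.62 times. Socs3 was higher in the libraries numbered 1 of the knockouts (2.12 times in DGCR8 KO and 1.86 times in DDX6 KO) and level in WT (1.01 times). Bcl3 went the other way, at 0.355, 0.296 and 0.510 of the level in the other libraries of WT, DGCR8 KO and DDX6 KO cells. Stat3 was at 0.504, 0.765 and 0.760, though DGCR8 KO replicate 2 was below DGCR8 KO replicate 1. Pim1 was at 0.856, 0.773 and 0.888, with the libraries numbered 1 below all others of each genotype. The share of spike-in counts was 1.10% to 1.79% in libraries numbered 1 1.89% to 2.36% in those numbered 2 and 1.202% to 1.575% in those numbered 3, so it did not set number 1 apart. Libraries numbered 1 were 1 beside 2 others in WT and in DGCR8 KO, and 2 beside 2 others in DDX6 KO cells. The DDX6 KO and WT groups were thus not balanced for the number in the fit without a block. The labels do not say what the numbers stand for, and the source of the pattern was not tested.

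**Figure D3:**
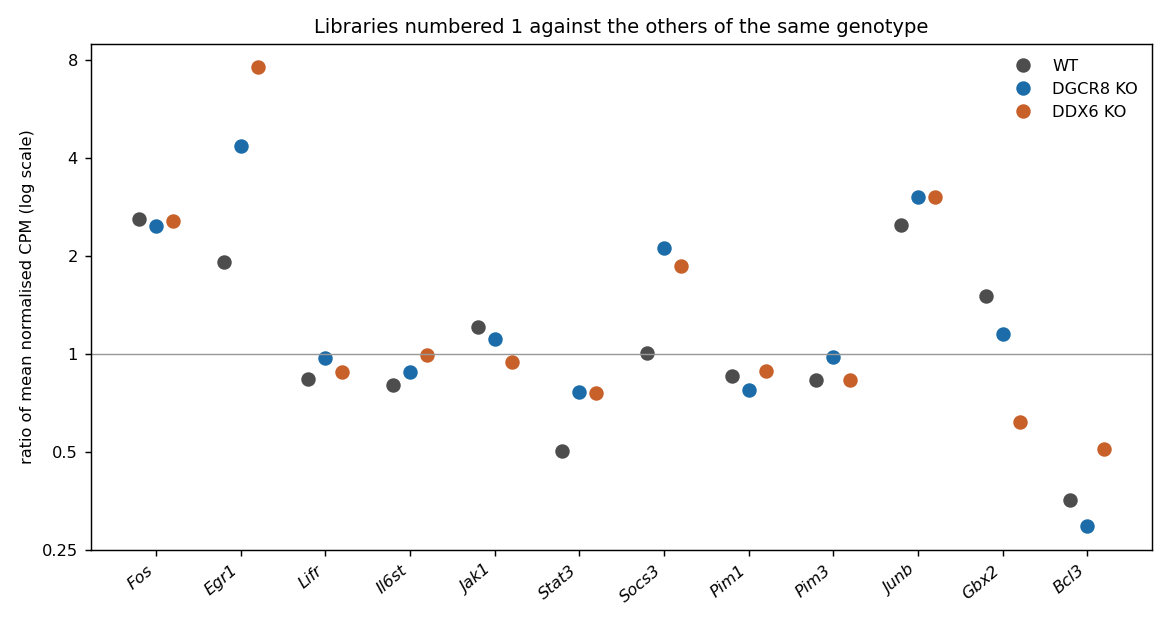
Ratio (y axis, log scale) of the mean normalised CPM in libraries numbered 1 to that in the other libraries of the same genotype, for Fos, Egr1 and the 10 pathway genes. Junb lies between 2.49 and 3.04 and Bcl3 between 0.296 and 0.510 in all 3 genotypes, while Socs3 lies at 1.01 in WT and at 2.12 and 1.86 in the knockouts.

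Without the 4 libraries numbered 1, a set left out after the pattern was seen, Socs3 had log2 fold changes of 0.58 in DGCR8 KO (limma adjusted p = 0.0668) and 0.49 in DDX6 KO cells (limma adjusted p = 0.132). In these fits, with fewer libraries, 3 of the 10 genes changed in DGCR8 KO (Il6st, Jak1 and Pim3) and 2 in DDX6 KO cells (Jak1 and Pim1), against 6 and 6 with all libraries. In the same fits 23.5% of all genes passed against WT in DGCR8 KO cells, and 15.5% did in DDX6 KO cells, against 36.3% and 34.5% with all libraries.

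Among the targets of STAT3, Pim1 and Pim3, which encode related serine/threonine kinases that promote survival and self-renewal, were lower in both knockouts. Pim1 (chr17:29490812-29496111, plus strand) had 74.9, 86.5 and 88.5 CPM in WT, 49.9, 65.2 and 63.9 CPM in DGCR8 KO, 53.8 and 57.0 CPM in clone 1, and 51.7 and 61.8 CPM in clone 2. All 7 knockout libraries were below all WT libraries. Pim1 fell by 0.51 on the log2 scale in DGCR8 KO (SE 0.14, limma adjusted p = 0.00736) and by 0.58 in DDX6 KO cells (SE 0.13, limma adjusted p = 0.00214). The DDX6 KO value passed in all 26 alternative fits. The DGCR8 KO value did not pass without DGCR8 KO replicate 1, at -0.38 (limma adjusted p = 0.0619). The knockouts differed by 0.068 (95% interval -0.22 to 0.35).

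Pim3 (chr15:88862186-88865718, plus strand) had 477, 642 and 507 CPM in WT and 385, 374 and 412 CPM in DGCR8 KO libraries. DDX6 KO cells had 401 and 508 CPM in clone 1 and 339 and 382 CPM in clone 2. The DGCR8 KO libraries were all below the WT libraries, while clone 1 replicate 2 lay above WT replicates 1 and 3. Pim3 fell by 0.46 in DGCR8 KO (SE 0.13, limma adjusted p = 0.00997) and by 0.42 in DDX6 KO cells (SE 0.12, limma adjusted p = 0.0136). Without WT replicate 2, the highest library, these values were -0.34 (limma adjusted p = 0.0663) and -0.29 (0.0939), and without clone 2 replicate 1 the DDX6 KO value was -0.33 (0.0561). With scaling by total counts it was -0.30 (limma adjusted p = 0.0617).

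The AP-1 subunit gene Junb (chr8:84976910-84978718, minus strand) had 83.5, 22.5 and 44.6 CPM in WT, 148, 40.7 and 57.0 CPM in DGCR8 KO, 139 and 53.6 CPM in clone 1, and 161 and 45.1 CPM in clone 2. The genotypes overlapped, and the first value of each series, from a library numbered 1, was its highest. Without a block neither knockout passed. The log2 fold change was 0.77 in DGCR8 KO (95% interval -0.31 to 1.85, limma adjusted p = 0.262) and 0.9996 in DDX6 KO cells (95% interval 0.0026 to 2.00, limma adjusted p = 0.112). Same-numbered WT and DGCR8 KO libraries deviated together, and with the number as a replicate block the DGCR8 KO value was 0.67 (SE 0.14, limma adjusted p = 2.86e-04). It was the only one of the 10 genes whose DGCR8 KO call the block changed, giving 5 higher and 2 lower, where 21.9% of all genes were higher and 18.9% lower with the block. With the same block the DDX6 KO value of Junb was 0.83 (SE 0.14, limma adjusted p = 4.59e-05), which passed. The number was not taken to pair DDX6 KO with WT libraries. In fits without a block, the DDX6 KO value was 1.34 and passed without clone 2 replicate 2 (limma adjusted p = 0.0408). It was 0.55 without WT replicate 2 (0.415). The DGCR8 KO value without the block was 0.18 without DGCR8 KO replicate 1 (limma adjusted p = 0.828). Junb lies on chromosome 8, whose 644 tested genes had a median log2 difference from WT of -0.45 ± 0.065 in the DGCR8 KO libraries (SD, n = 3) and of -0.013 ± 0.024 in those of DDX6 KO (SD, n = 4). Relative to that median the DGCR8 KO value of Junb was 1.23 (limma adjusted p = 0.0684). The medians of the chromosomes that hold the other 9 genes lay within 0.11 of 0 in every library.

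Gbx2, a homeobox gene that can sustain ESCs without LIF when overexpressed (chr1:89927956-89931179, minus strand), was rare. WT libraries had 8.16, 4.77 and 6.02 CPM from 17, 14 and 27 counts. DGCR8 KO libraries had 5.21, 3.73 and 5.29 CPM, clone 1 had 1.10 and 3.83 CPM, and clone 2 had 2.81 and 2.52 CPM, from 3 to 11 counts in DDX6 KO cells. All 4 DDX6 KO libraries were below all 3 WT libraries, while DGCR8 KO and WT libraries overlapped. The log2 fold change was -1.27 in DDX6 KO (SE 0.40, limma adjusted p = 0.0182) and -0.34 in DGCR8 KO cells (95% interval -1.11 to 0.42). The DDX6 KO value was -1.28 without WT replicate 3 (limma adjusted p = 0.0525) and -0.97 without clone 1 replicate 1 (0.0662). The knockouts differed by 0.93 (95% interval 0.043 to 1.81, limma adjusted p = 0.0819), which did not pass.

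Bcl3, a nuclear cofactor of NF-κB (chr7:19808462-19822770, minus strand), did not pass in either knockout. It had 20.2, 50.4 and 63.1 CPM in WT, 13.5, 34.3 and 56.6 CPM in DGCR8 KO, 17.6 and 48.0 CPM in clone 1, and 28.1 and 41.7 CPM in clone 2. The genotypes overlapped, and the libraries numbered 1 were the lowest of each genotype. The log2 fold change was -0.63 in DGCR8 KO (95% interval -1.53 to 0.28, limma adjusted p = 0.274) and -0.45 in DDX6 KO cells (95% interval -1.27 to 0.38, limma adjusted p = 0.399). With 1 library left out the DGCR8 KO value ran from -1.05 without DGCR8 KO replicate 3 to -0.017 without DGCR8 KO replicate 1. The DDX6 KO value ran from -0.83 without WT replicate 1 to -0.081 without WT replicate 3, and none of these passed. With the replicate block the values were -0.37 in DGCR8 KO (limma adjusted p = 0.154) and 0.013 in DDX6 KO cells (0.971).

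The DDX6 KO clones were compared in a fit with a group for each clone. None of the 10 genes passed in clone 2 against clone 1 by limma, edgeR or DESeq2, and 5 of all genes tested did by limma (0.0428%). Only Pim3 had an unadjusted limma p-value under 0.05, with a log2 difference of -0.32 (95% interval -0.65 to -0.0046), both clone 2 libraries being below both clone 1 libraries. With 2 libraries for each clone the intervals were wide for some genes, from -0.30 to 0.33 around 0.015 for Jak1 and from -1.07 to 1.66 around 0.29 for Gbx2. Against WT, Jak1 and Pim1 passed in each clone, with 0.43 and 0.45 for Jak1 and -0.60 and -0.56 for Pim1 in clones 1 and 2. Pim3 passed in clone 2 (-0.58, limma adjusted p = 0.00605) and had -0.25 in clone 1 (limma adjusted p = 0.190). Il6st (limma adjusted p = 0.0921 and 0.0939), Socs3 (0.0566 and 0.0863) and Gbx2 (0.0677 and 0.100029) passed against WT in neither clone in this fit. Their values in clones 1 and 2 were -0.52 and -0.50, 0.96 and 0.85, and -1.43 and -1.13. In a separate fit that left out the clone 2 libraries, Socs3 passed (0.97, limma adjusted p = 0.0415). It did not in the fit that left out clone 1 (0.86, 0.0773).

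The rest of the pathway was described from lists of 56 further genes, of which 47 passed the filter. In DGCR8 KO cells 10 of the 47 were higher and 7 lower than in WT, and in DDX6 KO cells 10 were higher and 3 lower. These are 21.3% and 14.9% of the 47 in DGCR8 KO cells, beside 19.9% and 16.5% of all genes, and 21.3% and 6.38% in DDX6 KO cells, beside 17.9% and 16.6%. With the replicate block 19 of the 47 changed in DGCR8 KO cells, Fos and Ier3 being added. Without WT replicate 3 the 17 that changed in DGCR8 KO cells became 9. The share of all genes that passed in that smaller fit is not given here, so the drop cannot be set beside it. The direct contrast separated 17, with 9 higher and 8 lower in DGCR8 KO cells. That is 19.1% and 17% of the 47, beside 23.0% and 21.0% of all genes. The genes named with their values were taken from those past the adjusted p-value with a log2 change beyond 0.58 in either knockout.

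**Figure D4:**
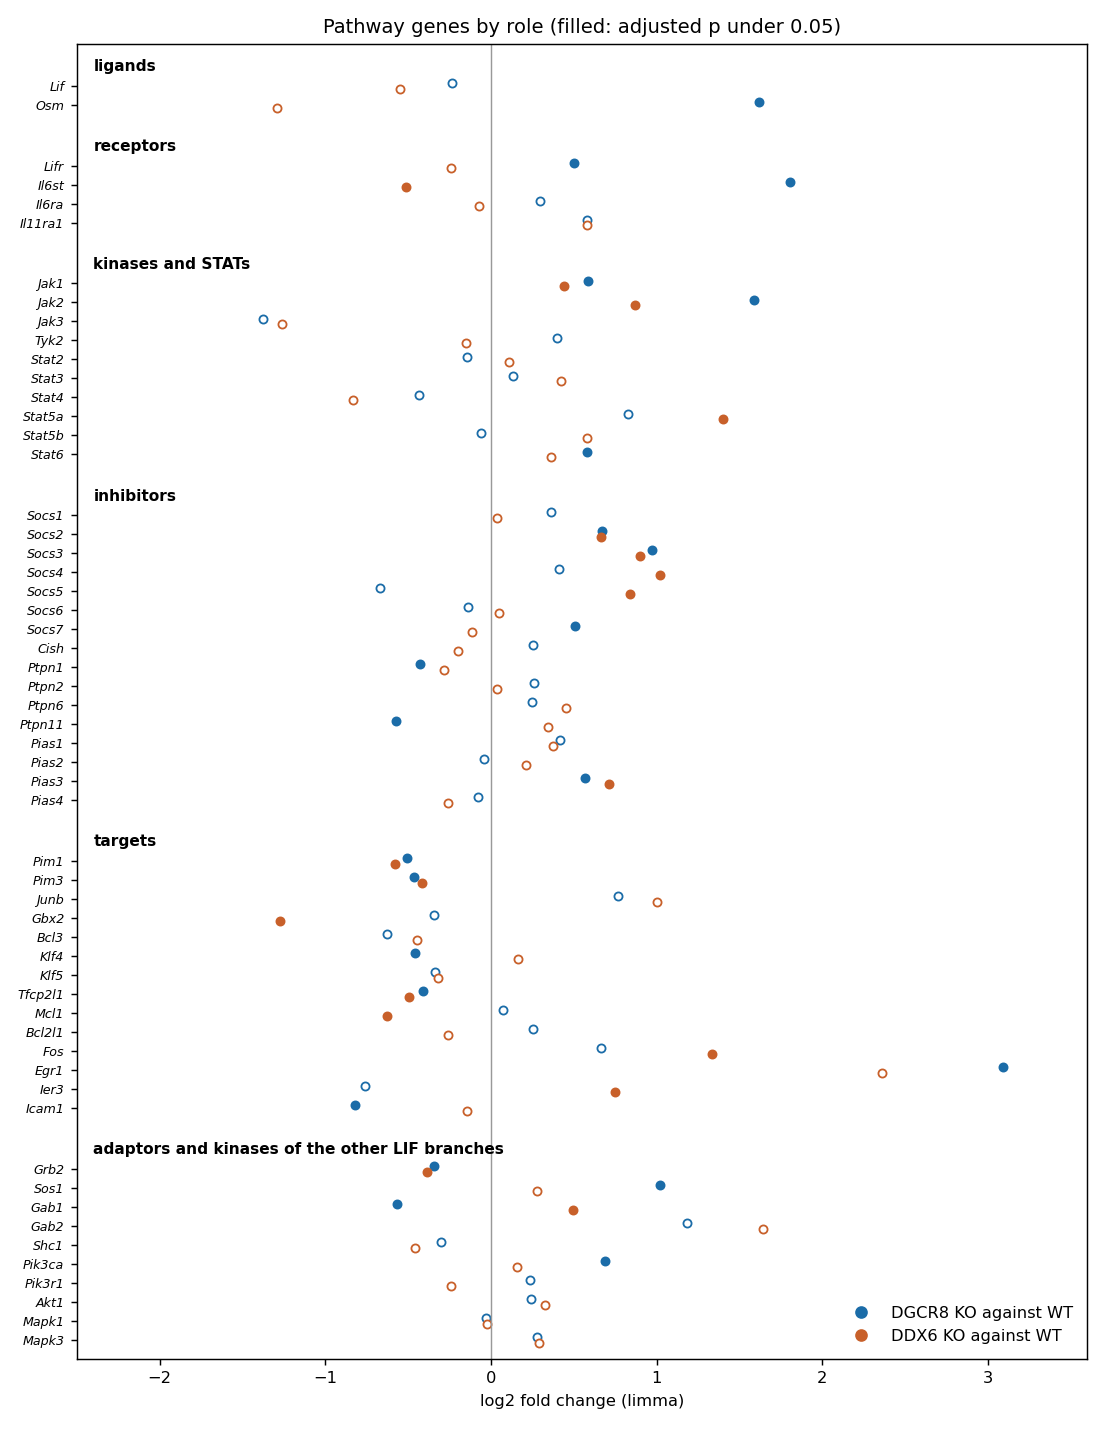
Log2 fold changes against WT (x axis) of tested pathway genes, each listed once under its first role, in DGCR8 KO (blue) and DDX6 KO cells (orange), filled where the limma adjusted p-value was under 0.05. Osm and Egr1 lie at 1.62 and 3.09 in DGCR8 KO cells, Jak2 at 1.59 and 0.87, and Socs5 at -0.67 and 0.84, in DGCR8 KO and DDX6 KO cells respectively.

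Of 8 ligands of the family, 6 had too few counts to test, Il6 with 0 counts in all libraries. Lif itself stood at 2.45 to 3.75 CPM in WT and at 1.40 to 4.03 CPM in the knockouts, and did not pass. Osm, the cytokine oncostatin M, had 12.96, 6.81 and 8.69 CPM in WT and 33.7, 44.1 and 12.2 CPM in DGCR8 KO libraries. DDX6 KO cells had 6.59 and 5.56 CPM in clone 1 and 1.76 and 2.52 CPM in clone 2. Its log2 fold change was 1.62 in DGCR8 KO cells (SE 0.42, limma adjusted p = 0.00514), though 1 DGCR8 KO library lay within the WT range. It was -1.29 in DDX6 KO cells (limma adjusted p = 0.0909), which did not pass with all libraries and no block. It did without DGCR8 KO replicate 2 (0.0413) or replicate 3 (0.0166), and with the replicate block (-1.65, limma adjusted p = 0.00452). The knockouts differed by 2.91 (limma adjusted p = 1.89e-04). Of the 6 receptor genes 4 were tested, and none beside Lifr and Il6st passed. The receptors of oncostatin M and CNTF, Osmr and Cntfr, had at most 2 and 4 counts in any library.

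Of 11 kinases and STATs, 4 were higher and none lower in each knockout. Among all genes tested, 19.9% were higher and 16.5% lower in DGCR8 KO cells, and 17.9% and 16.6% in DDX6 KO cells. Jak2, a relative of Jak1 that several cytokine receptors use, was at 13.9 ± 3.40 CPM in WT, 39.2 ± 7.35 in DGCR8 KO and 23.8 ± 1.43 in DDX6 KO (SD, n = 3, 3 and 4). This gave log2 fold changes of 1.59 (limma adjusted p = 2.01e-05) and 0.87 (limma adjusted p = 0.00524). All knockout libraries were above all WT libraries for Jak2, and the knockouts differed (0.72, limma adjusted p = 0.00312). Without WT replicate 3 the DDX6 KO value of Jak2 was 0.57 and did not pass (limma adjusted p = 0.0976). Stat5a rose by 1.40 on the log2 scale in DDX6 KO cells (limma adjusted p = 0.00138). Its DGCR8 KO value of 0.83 (limma adjusted p = 0.0573) did not pass, and did without DGCR8 KO replicate 2 (1.11, 0.0113).

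Of 16 inhibitors, Socs3 among them, 4 were higher and 2 lower in DGCR8 KO cells, and 5 were higher and none lower in DDX6 KO cells. Over all genes 19.9% were higher and 16.5% lower in the former, and 17.9% and 16.6% in the latter. Socs2, a relative of Socs3 best known for limiting growth hormone signalling, rose by 0.67 in both (limma adjusted p = 0.00621 and 0.00487). Pias3, which encodes a protein that binds STAT3 and blocks its contact with DNA, rose by 0.57 in DGCR8 KO (limma adjusted p = 0.0180) and 0.71 in DDX6 KO cells (limma adjusted p = 0.00294). The DGCR8 KO value of Pias3 did not pass without WT replicate 3 (0.48, 0.0978) or DGCR8 KO replicate 1 (0.37, 0.143). Socs4 stood at 33.5 ± 2.62 CPM in WT (SD, n = 3) and at 67.3 ± 8.32 CPM in DDX6 KO (SD, n = 4), a rise of 1.02 (limma adjusted p = 4.22e-05). In DGCR8 KO cells it had 0.41 (limma adjusted p = 0.0559), which passed without clone 1 replicate 2 (0.0419). Socs5 rose by 0.84 in DDX6 KO cells (limma adjusted p = 0.00384) and had -0.67 in DGCR8 KO cells (limma adjusted p = 0.0608), a difference between the knockouts of -1.51 (limma adjusted p = 6.91e-05).

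Of 18 STAT3 targets, which include 7 of the 10 genes (Stat3 itself among them), 17 were tested. In DGCR8 KO cells 2 were higher and 5 lower (4 and 6 with the replicate block), and in DDX6 KO cells 3 were higher and 5 lower, where 19.9% and 16.5% of all genes were higher and lower in the former (21.9% and 18.9% with the block) and 17.9% and 16.6% in the latter. Mcl1, an inhibitor of apoptosis, fell by 0.63 in DDX6 KO cells (limma adjusted p = 0.00126) and had 0.073 in DGCR8 KO cells, and the knockouts differed by 0.70 (limma adjusted p = 3.08e-04). Klf4 and Tfcp2l1, named here after their values were seen, encode factors through which LIF sustains the naive state. Klf4 fell by 0.46 in DGCR8 KO (limma adjusted p = 0.0188) and had 0.16 in DDX6 KO cells (limma adjusted p = 0.368), and the knockouts differed by -0.62 (limma adjusted p = 0.00124). Tfcp2l1 fell by 0.41 in DGCR8 KO (limma adjusted p = 0.0382) and 0.50 in DDX6 KO cells (limma adjusted p = 0.0103). Icam1, a cell adhesion gene, fell by 0.82 in DGCR8 KO cells (limma adjusted p = 0.0265), a call that did not pass without WT replicate 2 (0.0844), WT replicate 3 (0.0794) or DGCR8 KO replicate 1 (-0.44, 0.229).

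Fos and Egr1 moved with the title number as well as with the genotype. Egr1 had 18.2, 8.52 and 10.5 CPM in WT, 252, 68.2 and 47.2 CPM in DGCR8 KO, 189 and 23.7 CPM in clone 1, and 147 and 20.4 CPM in clone 2. Every knockout library was above every WT library. Egr1 had a log2 fold change of 3.09 in DGCR8 KO (SE 0.97, limma adjusted p = 0.0173), which did not pass without WT replicate 3 (0.0754) or DGCR8 KO replicate 1 (2.34, 0.0662). It was 2.36 in DDX6 KO cells (limma adjusted p = 0.0635), which passed without DGCR8 KO replicate 1 (0.0357), clone 1 replicate 2 (0.0354) or clone 2 replicate 2 (0.0243). With the replicate block the DDX6 KO value of Egr1 was 2.34 and passed (limma adjusted p = 7.31e-07). Fos had a log2 fold change of 1.33 in DDX6 KO (limma adjusted p = 0.0160) and 0.67 in DGCR8 KO cells (limma adjusted p = 0.258), the latter 0.55 with the replicate block (limma adjusted p = 6.68e-04). The DDX6 KO call of Fos did not pass without WT replicate 3 (0.84, 0.162) or clone 1 replicate 1 (1.07, 0.0518). With the block the DDX6 KO value of Fos was 0.94 and passed (limma adjusted p = 1.84e-06). Ier3 had 0.75 in DDX6 KO (limma adjusted p = 0.0179) and -0.76 in DGCR8 KO cells (limma adjusted p = 0.0620, or 0.0146 with the block), and the knockouts differed by -1.51 (limma adjusted p = 3.04e-04). The DDX6 KO call of Ier3 did not pass without WT replicate 2 (0.0794) or WT replicate 3 (0.121), or with the block (0.58, limma adjusted p = 0.0582). The DGCR8 KO value passed without WT replicate 2 (0.0452) or DGCR8 KO replicate 1 (0.0366).

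LIF also signals through SHP2 (Ptpn11), Grb2 and the MAP kinases, and through PI3 kinase. Of 11 genes of these branches, 2 were higher and 3 lower in DGCR8 KO, and 1 was higher and 1 lower in DDX6 KO cells. The shares of all genes were 19.9% higher and 16.5% lower in DGCR8 KO, and 17.9% and 16.6% in DDX6 KO cells. Sos1, the exchange factor that activates RAS, rose by 1.02 in DGCR8 KO cells (SE 0.13, limma adjusted p = 8.90e-06), with 82.4 ± 9.38 CPM in WT and 165 ± 23.9 CPM in DGCR8 KO (SD, n = 3 each), and the knockouts differed by 0.74 (limma adjusted p = 6.57e-05). Pik3ca, a catalytic subunit of PI3 kinase, rose by 0.69 in DGCR8 KO cells (limma adjusted p = 4.83e-04), and the knockouts differed by 0.53 (limma adjusted p = 0.00168). The adaptor gene Gab1, named after its values were seen, fell by 0.57 in DGCR8 KO cells (limma adjusted p = 7.65e-04). In DDX6 KO cells it rose by 0.50 (limma adjusted p = 0.00108). Gab1 lies on chromosome 8, whose tested genes had a median log2 difference from WT of -0.45 in the DGCR8 KO libraries. That median was -0.013 in the DDX6 KO libraries. The DGCR8 KO value of Gab1 given here is not corrected for the median.

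The genes whose log2 CPM ran most like that of 3 members were taken from the 8632 genes whose average level reached 10 CPM. For Lifr they were 2610318N02Rik (Pearson's r = 0.9747), Mt2 (0.966) and Kmt2b (0.964), over 10 libraries. For Stat3 they were Mettl2 (0.910), Bad (0.898) and Cryzl1 (0.894), and for Socs3 Egr1 (0.950), Tuba1a (0.923) and Mir22hg (0.913). The libraries share genotypes and title numbers, so these values describe likeness in this set of libraries.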

How the data were processed

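The values deposited by the authors are counts of reads with a single alignment, by gene and library. No molecular identifiers are stated. Per the labels and the study's methods, the authors trimmed reads with cutadapt 1.14, aligned them to mm10 with STAR 2.5.3a, and used featureCounts 1.5.3 for strand-specific counts, with 92 spike-in sequences added. Spike-in counts were set apart. Symbols, 3′ UTRs and coordinates came from GENCODE annotation of GRCm38, matched by gene identifier (51274 of 51467 genes), and promoter and miRNA sequences from RefSeq (GRCm38.p6). Intervals and floors cover counting or replicate error only. A floor of 3 counts was 0.632 to 1.41 CPM.

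Genes that reached 3 CPM in 3 or more libraries (11683 of 24468 with a count) were scaled by TMM (edgeR 4.0.16) and tested with limma 3.58.1 (voom, empirical Bayes, two-sided, Benjamini-Hochberg over all genes tested) in R 4.3.3. The study's methods name limma, a linear model and this filter, and the scaling, transformation and adjustment are not from its text. The model held all 10 libraries and a term for genotype, and a model with 1 group per clone gave the contrast of the clones. edgeR and DESeq2 1.42.0 tests on the same counts were alternatives, as were other scalings, filters, left-out libraries and a replicate block. The scripts were tested on simulated counts.

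The 10 genes, the pathway lists and the rules were chosen with earlier results of these data known. Named were all 10 genes, list genes with an adjusted p-value under 0.05 and a log2 change beyond 0.58 in a knockout, and for Lifr, Stat3 and Socs3 the 3 most alike genes. 1 list gene that met the rule is counted but not reported here. The titles number the libraries. Deviations from the group mean correlated by 0.118, 0.235 and 0.244 between same-numbered WT and DGCR8 KO libraries, all over 0.1, so the number was taken to pair these. The fit reported has no block. Blocked values are given where they change a DGCR8 KO call against WT, for Socs3 and Bcl3, and for some calls of DDX6 KO cells. Between WT and DDX6 KO libraries the values were 0.112, 0.129, 0.0967 and -0.0353, and the number was not taken to pair these.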

Additional observations from a re-analysis of the deposited data

Results flagged for a closer look

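The effects of both knockouts against WT differed for 2 of the 10 genes by the direct contrast, whose test is that of the difference itself. The DGCR8 KO effect minus the DDX6 KO effect was 2.32 on the log2 scale for Il6st (limma adjusted p = 1.44e-09) and 0.74 for Lifr (limma adjusted p = 1.09e-04), with all 3 DGCR8 KO libraries above all 4 DDX6 KO libraries. No library of the DDX6 KO group, the only group with 4 libraries, stood apart from the others for any of the 10 genes by the gap test at the 95% level. The test concerns a single library and cannot show a split of the group by title number. Junb, for example, had 139 and 161 CPM in the DDX6 KO libraries numbered 1 and 53.6 and 45.1 CPM in those numbered 2.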

How the results depend on the processing

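Each of the 10 genes was refitted under 26 alternatives where these applied. The calls of Jak1 and Il6st in DGCR8 KO, of Jak1 and Pim1 in DDX6 KO, and of Lifr and Il6st between the knockouts passed in all of them. Without the 4 libraries numbered 1, an alternative added after the data were seen, the number of the 10 genes changed was 3 in DGCR8 KO (6 with all libraries) and 2 in DDX6 KO (6 with all), and that of the further pathway genes was 8 in DGCR8 KO (17 with all) and 11 between the knockouts (17 with all). With clone 1 alone 3 genes changed in DDX6 KO, and with clone 2 alone 3. Leaving out 1 library at a time gave 4 to 6 in DGCR8 KO, 3 to 7 in DDX6 KO and 2 between the knockouts, and 9 to 18 further pathway genes in DGCR8 KO and 9 to 15 in DDX6 KO, which had 21 with scaling by total counts (13 with TMM). Shares of all genes that passed with 1 clone, with 1 library left out or with total counts are not given here. The counts from those fits can therefore not be set beside all genes. The values that changed sign had not passed and did not pass after the change. For Stat3 in DGCR8 KO, the value was -0.045 without the libraries numbered 1 and ran from -0.15 to 0.41 with 1 library left out. Between the knockouts, Socs3 had -0.060 with total counts, -0.012 with clone 1 alone, and -0.33 to 0.33 with 1 library left out. Pim1 had -0.060 with total counts and -0.0046 to 0.19 with 1 left out. Pim3 had 0.087 with clone 2 alone and -0.15 to 0.059 with 1 left out. Junb had 0.21 with chromosome medians removed and -0.82 to 0.18 with 1 left out. Bcl3 had 0.00049 in edgeR, 0.021 in DESeq2, and -0.60 to 0.43 with 1 left out. The cause was not tested.

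With the replicate number as a block, 7 of the 10 genes changed in DGCR8 KO, 8 in DDX6 KO and 3 between the knockouts, and over all genes 4760 passed in DGCR8 KO (4245 without the block), 3727 in DDX6 KO (4032) and 5346 between the knockouts (5144). The numbers were not taken to pair DDX6 KO with WT libraries, as not every same-numbered correlation was over 0.1. Those of the libraries numbered 1 were, at 0.112 and 0.129. With the block Stat3 (0.72) and Junb (0.83) passed in DDX6 KO and Stat3 (-0.53) between the knockouts, and Bcl3 in DDX6 KO was 0.013. Gbx2 rested on 3 to 27 counts a library, which limits its precision.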
